A study of Mus musculus with 8 samples.

Results

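The 10 genes described here encode enzymes that modify collagen. They are the lysyl oxidases Lox, Loxl1, Loxl2, Loxl3 and Loxl4, the lysyl hydroxylases Plod1, Plod2 and Plod3, and the prolyl 4-hydroxylase alpha subunits P4ha1 and P4ha2. They were taken by gene symbol from a deposited table of 22520 genes. All 10 were present, and all 10 had a value of at least 1 FPKM (fragments counted per length of transcript and per library size) in all 8 libraries, so that each was among the 11389 genes tested.

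Prolyl 4-hydroxylase adds hydroxyl groups to prolines of new collagen chains in the endoplasmic reticulum, which holds the collagen triple helix together at body temperature. Lysyl hydroxylases do the same for lysines, and these hydroxylysines carry sugars and form the stronger kind of crosslink. After secretion, the copper-dependent lysyl oxidases turn lysines of collagen and elastin into aldehydes, from which the crosslinks between molecules form. Fibroblasts and smooth muscle cells are well-known sources of these enzymes, and endothelial cells use them for the basement membrane.

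Expression came from RNA sequencing of 8 mouse cell libraries, 4 labelled LRP1 KO and 4 labelled as wild type (WT), all of strain C57BL/6 at postnatal day 14. By its label, each library mixes microvascular cells from heart, liver and lung, and the series description calls them endothelial. As the study describes them, the knockout mice were LRP1 f/f; Cdh5-CreER+/-, with an inducible Cre driven by the promoter of the endothelial gene Cdh5, and the littermate controls were LRP1 f/f; Cdh5-CreER-/-, so both groups carried the floxed alleles. The study describes RNA sequencing of liver cells and of heart and lung cells separately, not of a mixture, so that it is not settled that these genotypes are those of the present libraries. The methods describe capture of endothelial cells on beads coated with PECAM-1 antibody. The number of animals behind each library is not given in the sources used here, so p-values measure the spread between these libraries. The deposited values had been quantile normalized, and the sequencing depth is unknown. The comparison asks which genes differ between libraries labelled LRP1 KO, for an endocytic receptor, and WT.

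The targeted gene Lrp1 (chromosome 10, 127538161 to 127621148, minus strand, GRCm38) fell from 120.1 ± 16 FPKM in the WT libraries to 4.79 ± 2.20 FPKM (SD, n = 4 a group, limma adjusted p 8.89e-05). The labelled cell type was compared with marker lists. All 16 endothelial genes were detected, but their summed level was only 184 to 201 FPKM in WT, against 1780 to 2380 FPKM for 17 fibroblast genes and 2255 to 2599 FPKM for 5 genes of mesothelium, the lining of heart, lung and liver. Summed endothelial levels were 680, 416, 496 and 188 FPKM in LRP1 KO libraries 1 to 4, so that library 4 stood within the WT range while the other 3 were above it, with all 14 tested genes higher, 1 of them past the limma test and 11 at an unadjusted p under 0.05. Over all tested genes, 6.27% passed as higher, 7.31% passed as lower and 33.7% had an unadjusted p under 0.05. Fibroblast sums were 1228 to 1868 FPKM in LRP1 KO, with 14 of 16 tested genes lower and 4 of them past the test. Mesothelial sums were 1959 to 2206 FPKM, with 2 of 5 genes past the test and lower. Sums over 12 mural cell genes were 675 to 841 FPKM in WT and 1047 to 1646 FPKM in LRP1 KO, with 5 of 9 tested genes past the test and higher. Sums over 14 macrophage genes were 58.5 to 100.8 FPKM and 241 to 582 FPKM, with 9 of 11 past the test and higher, and those over 8 general leukocyte genes were 3.82 to 6.98 FPKM and 20.6 to 37.3 FPKM, with 4 of 5 past the test and higher. Platelet genes summed to 1.53 to 4.27 FPKM over all libraries, with Ppbp at 0 throughout, and lung epithelial genes to 3.63 to 7.35 FPKM, with 1 of 2 tested genes past the test and lower. Hepatocyte genes summed to 11.5 to 28.0 FPKM, most of it Ahsg, the single tested gene, which was higher in LRP1 KO, with Cyp3a11 at 0 throughout. Cardiomyocyte genes summed to 90.3 to 156 FPKM, most of it Tnnt2, with 0 of 3 tested genes past the limma test and 2 at an unadjusted p under 0.05. In such bulk samples, more cells of a type and more RNA per cell cannot be told apart. The part of these shifts in the results below was not tested beyond the covariate fits given with them.

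**Figure D1:**
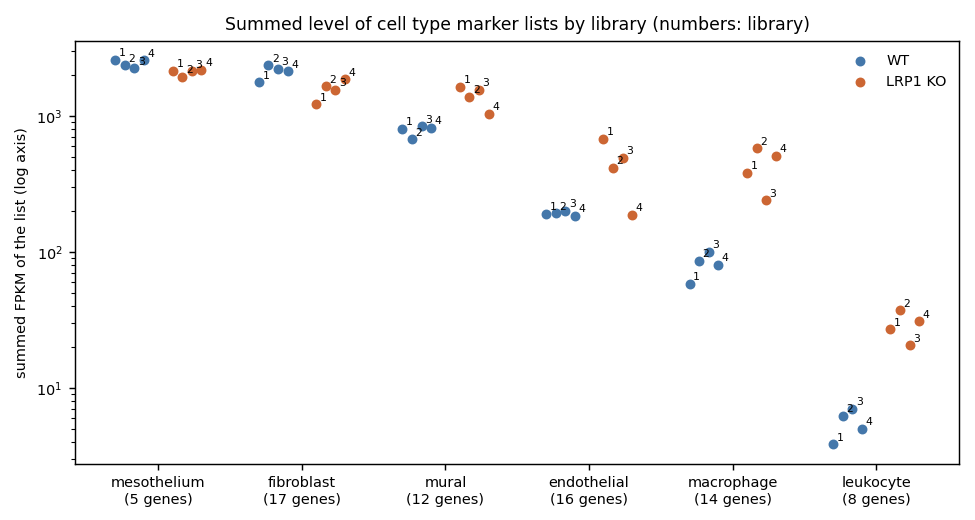
Summed FPKM of 6 marker lists (log axis) in each WT and LRP1 KO library, numbered 1 to 4. Mesothelial and fibroblast genes stand above endothelial genes in every library, and the endothelial sum of LRP1 KO library 4 (188 FPKM) lies among the WT libraries.

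The enzymes ranged widely in level. In WT, Lox had the highest mean of the 10, at 533 FPKM, and stood at place 154 of the 11389 tested genes. Loxl1 (154 FPKM), Loxl2 (117 FPKM), P4ha1 (92.8 FPKM), Plod3 (81.7 FPKM), Plod2 (66.5 FPKM), P4ha2 (43.6 FPKM), Plod1 (43.0 FPKM), Loxl3 (15.4 FPKM) and Loxl4 (5.05 FPKM, at place 8392) followed. FPKM is scaled by length, so these levels can be set side by side. Neighbours in this order whose WT values overlapped were P4ha1 and Plod3, Plod3 and Plod2, and P4ha2 and Plod1. The order was not the same in LRP1 KO, where Loxl1 came after Loxl2 and P4ha1. Its values overlapped those of Loxl2, P4ha1, Plod2 and Plod3, and in library 4 Loxl1 was above Loxl2. Lox stood apart at the top and Loxl4 at the bottom in both groups.

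Of the 10 enzymes, 4 passed the test (limma, adjusted p under 0.05 over all tested genes), and all 4 were higher in LRP1 KO: P4ha1, P4ha2, Plod2 and Loxl2. Among all tested genes, 6.27% were higher and 7.31% lower by the same rule. No member both passed and changed by the 2-fold that the study required, which 1.62% of all tested genes did, and 6 of the 10 had an unadjusted limma p under 0.05, as did 33.7% of all genes. The median change of the members was 0.33 on the log2(FPKM + 1) scale, against -0.01 over all tested genes, with 8 of 10 higher against 48.1% of all genes. With the level of fibroblast or of endothelial genes as a covariate, 0 of the 10 passed limma at an adjusted p under 0.05. Of all 11389 tested genes, 166 and 177 passed in these fits, where the median SE was 0.120 and 0.114 in place of 0.0880. Of the 4 calls, P4ha1 alone held in all 8 fits that left out 1 library. The number of members passing in those fits was 1 to 6, where 512 to 3021 of all tested genes passed.

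**Figure D2:**
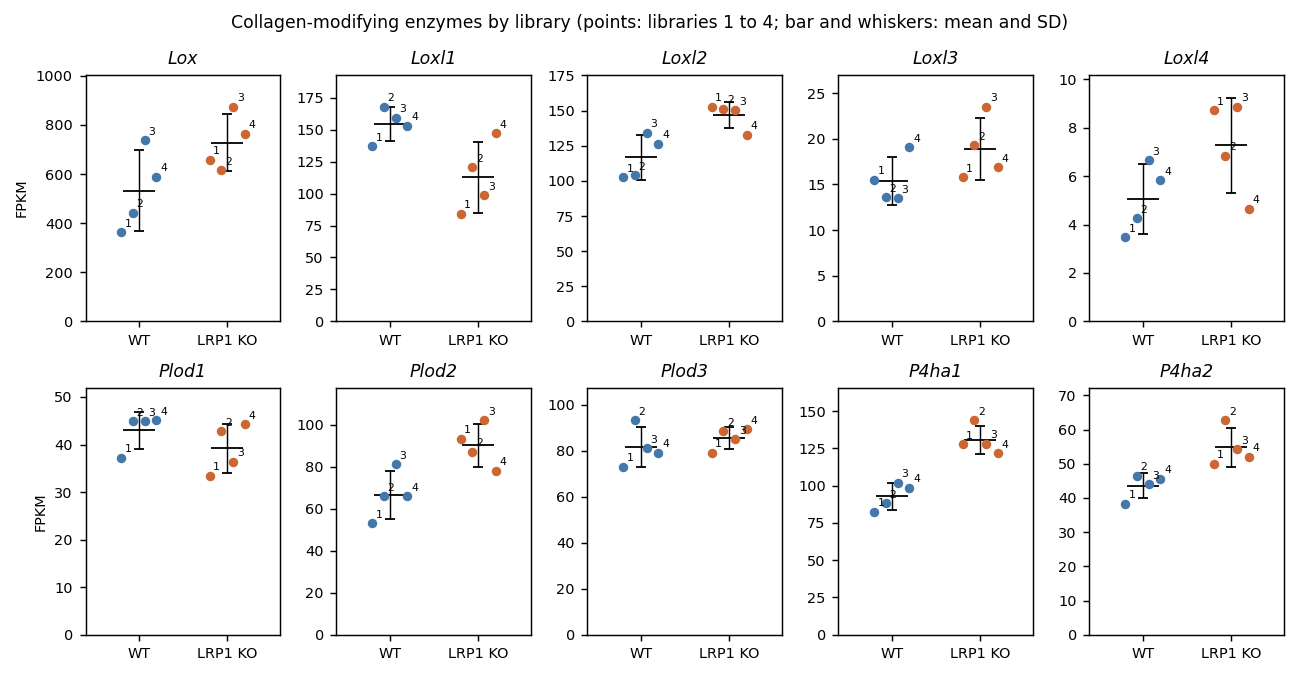
FPKM of each enzyme in the 4 WT and 4 LRP1 KO libraries (points, numbered by library) with the group mean and SD. The LRP1 KO values of P4ha1 (121.8 to 144 FPKM) and P4ha2 (50.01 to 62.8 FPKM) lie above all WT values, and the other 8 genes overlap.

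P4ha1 and P4ha2 encode catalytic alpha subunits of prolyl 4-hydroxylase, which pair with the protein disulfide isomerase P4hb. P4ha1 (ENSMUSG00000019916, chromosome 10, 59323296 to 59373304, plus strand, GRCm38) measured 82.6, 88.4, 101.9 and 98.5 FPKM in the WT libraries, numbered 1 to 4. The LRP1 KO libraries measured 127.9, 144, 128.2 and 121.8 FPKM in the same order. Every LRP1 KO value exceeded every WT value, a separation seen upward in 8.84% of all tested genes. The means were 92.8 ± 8.91 and 130.5 ± 9.49 FPKM (SD, n = 4 each), a ratio of 1.41. P4ha1 rose by 0.49 on the log2(FPKM + 1) scale (SE 0.08, 95% interval 0.31 to 0.67, limma adjusted p 0.00788), with Lox the largest change among the 10. The two-sided exact permutation p was 0.0286, the smallest that 4 libraries against 4 allow. The estimate stayed between 0.43 and 0.53 when 1 library was left out, with adjusted p-values of 0.00339 to 0.0299. With the level of fibroblast or endothelial genes as a covariate the estimates were 0.53 and 0.46, and the adjusted p-values 0.0753 and 0.119, while all alternatives together spanned 0.00299 to 0.119.

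P4ha2 (ENSMUSG00000018906, chromosome 11, 54100095 to 54131665, plus strand, GRCm38) measured 38.3, 46.5, 44.1 and 45.6 FPKM in WT, and 50.01, 62.8, 54.3 and 52.1 FPKM in LRP1 KO. Here too the groups did not overlap. The means were 43.6 ± 3.69 and 54.8 ± 5.61 FPKM (SD, n = 4 each), a rise of 0.32 on the log2(FPKM + 1) scale (SE 0.09, 95% interval 0.13 to 0.51, limma adjusted p 0.0392, exact permutation p = 0.0286). That call held in 1 of the 8 fits without 1 library, which left out LRP1 KO library 4, with estimates between 0.25 and 0.36. With the fibroblast and endothelial covariates the estimates were 0.43 (SE 0.11, adjusted p 0.145) and 0.34 (SE 0.12, adjusted p 0.304). The summed level of both alpha subunits was 120.9 to 146 FPKM in WT and 174 to 207 FPKM in LRP1 KO. P4ha1 held 65.5% to 69.8% of that sum in WT and 69.6% to 71.9% in LRP1 KO, so the balance of the pair overlapped between the groups.

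Both genes passed and had a matched promoter sequence, so their promoters are shown. No promoter sequence was matched for Plod2 and Loxl2, which also passed. The windows of 300 bases run from 250 before to 50 after the RefSeq gene start (GRCm38.p6), 5′ to 3′ on the gene's strand. P4ha1 spans chr10:59323046-59323345 on the plus strand and P4ha2 spans chr11:54100674-54100973 on the plus strand, the latter inside the GENCODE span of the gene. Capitals mark ACGTG and GCGTG on either strand (read as CACGT and CACGC where they lie on the other strand, with no overlapping matches in these windows), the core letters of the hypoxia response element, to which hypoxia-inducible factors bind.
P4ha1: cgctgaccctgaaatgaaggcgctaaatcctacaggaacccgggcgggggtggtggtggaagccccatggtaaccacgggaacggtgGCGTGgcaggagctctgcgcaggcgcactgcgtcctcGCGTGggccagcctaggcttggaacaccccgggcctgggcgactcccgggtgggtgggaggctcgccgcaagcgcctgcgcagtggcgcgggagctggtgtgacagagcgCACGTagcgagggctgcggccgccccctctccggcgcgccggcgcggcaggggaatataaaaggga
P4ha2: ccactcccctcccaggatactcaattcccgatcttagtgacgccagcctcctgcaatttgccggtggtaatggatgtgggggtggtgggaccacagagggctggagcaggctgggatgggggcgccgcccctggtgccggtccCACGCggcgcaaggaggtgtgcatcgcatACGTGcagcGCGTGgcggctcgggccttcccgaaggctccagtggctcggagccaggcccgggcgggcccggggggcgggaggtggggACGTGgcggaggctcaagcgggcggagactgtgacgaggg
The P4ha1 window held 1 ACGTG and 2 GCGTG matches, and the P4ha2 window 2 of each. Promoter sequences were matched for 5 of the 10 members by symbol, and Plod3, Plod1 and Loxl4 held 4, 2 and 1 matches. Of 32851 promoter windows of this length on the other chromosomes than 18, 19.6% held ACGTG, 32.4% held GCGTG and 43.8% held either. The 5 windows were 53.3% to 75.0% G or C. These matches describe the letters only.

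Lysyl hydroxylases differ in what they modify. Plod2 is known for the lysines of the telopeptides at the ends of collagen chains, Plod1 for those of the helix, and Plod3 also adds sugars to hydroxylysine. Plod2 (ENSMUSG00000032374, chromosome 9, 92542223 to 92608428, plus strand, GRCm38) measured 53.0, 65.8, 81.2 and 65.9 FPKM in WT, and 93.4, 87.1, 102.1 and 78.0 FPKM in LRP1 KO. LRP1 KO library 4 was below WT library 3, and the other 3 exceeded every WT value. Plod2 rose from 66.5 ± 11.5 to 90.1 ± 10.2 FPKM (SD, n = 4 a group), a log2(FPKM + 1) change of 0.44 (SE 0.13, 95% interval 0.16 to 0.72, limma adjusted p 0.0474, exact permutation p = 0.0571). Its adjusted p stayed under 0.05 in 2 of 8 fits without 1 library (WT library 3 or LRP1 KO library 4), where the estimate ran from 0.34 to 0.54, and in 5 of 9 other settings. With the fibroblast covariate the estimate was 0.38 (adjusted p 0.452), and with the endothelial covariate 0.28 (adjusted p 0.6004).

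Plod1 (chromosome 4, 147909753 to 147936767, minus strand) measured 37.2, 44.9, 44.9 and 45.2 FPKM in WT and 33.5, 42.8, 36.4 and 44.3 FPKM in LRP1 KO. LRP1 KO libraries 1 and 3 were below all WT libraries, and the change of -0.13 did not pass (95% interval -0.36 to 0.09, limma adjusted p 0.374). It was -0.06 without LRP1 KO library 1 and -0.20 without WT library 1. Its sign turned with either cell type covariate, to 0.12 for fibroblast and 0.07 for endothelial genes. Plod3 (chromosome 5, 136987019 to 136996648, plus strand) measured 73.0 to 93.4 FPKM in WT and 79.1 to 89.4 FPKM in LRP1 KO. It differed by less than the spread between libraries, at 0.07 (95% interval -0.11 to 0.24, limma adjusted p 0.561). Leaving out WT library 1 gave 0.02 and leaving out WT library 2 gave 0.14, and the fibroblast and endothelial covariates gave 0.19 and 0.15, with none passing. Of the Plod3 exon bases, 11.7% are also exonic in Znhit1 on the other strand, which was at 42.6 FPKM in WT, and whether the counting used strand is not given in the sources used here.

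Within the family, the shares of the summed FPKM shifted between members. Plod1 made up 21.7% to 23.7% of the 3 lysyl hydroxylases in WT and 16.2% to 20.9% in LRP1 KO, with no overlap. Plod2 made up 34.6% ± 3.22 in WT and 41.9% ± 4.31 in LRP1 KO (SD, n = 4 each), with the ranges 32.3% to 39.2% and 36.8% to 45.7% overlapping. These shares are given without a test. The summed FPKM of the family was 163 to 207 in WT and 206 to 224 in LRP1 KO.

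**Figure D3:**
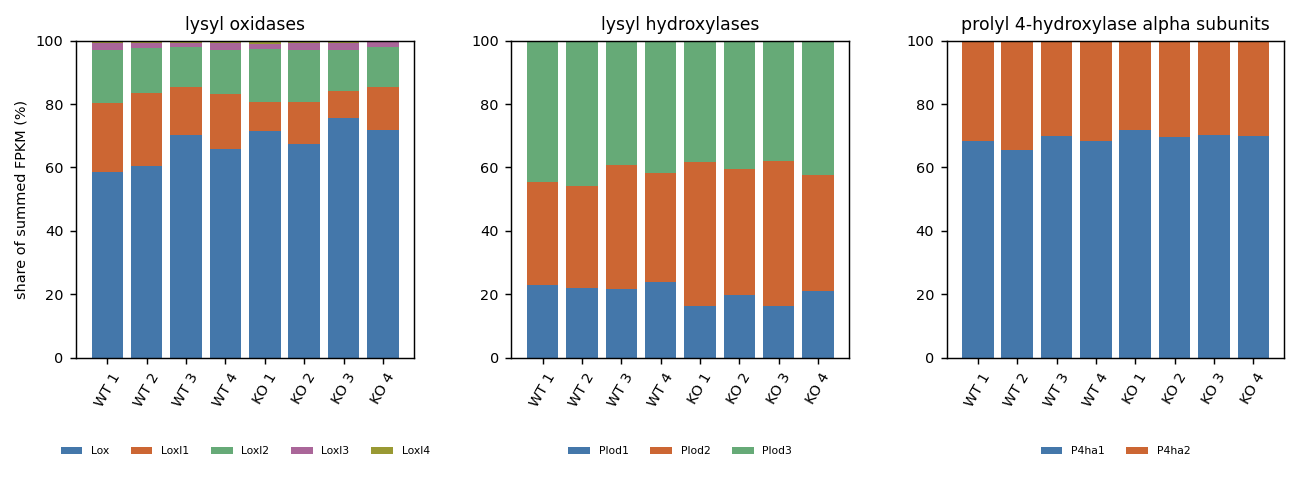
Share (%) of each member in the summed FPKM of its family, in the 4 WT and 4 LRP1 KO (KO) libraries, with stacked bars adding to 100%. The Plod1 share is 16.2% to 20.9% in LRP1 KO against 21.7% to 23.7% in WT, and the Loxl1 share is 8.53% to 13.8% against 15.2% to 22.9%.

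Lysyl oxidases share a copper-binding catalytic domain at the end of the protein. Lox is the founding member and acts on fibrillar collagen and elastin, Loxl1 is best known for elastic fibres, and Loxl2, Loxl3 and Loxl4 carry scavenger receptor domains, with Loxl2 known for collagen IV of basement membranes. Loxl2 (ENSMUSG00000034205, chromosome 14, 69609068 to 69695834, plus strand, GRCm38) measured 102.6, 104.1, 134.2 and 126.6 FPKM in WT, and 152.8, 151.4, 150.3 and 132.9 FPKM in LRP1 KO. Only LRP1 KO library 4 fell inside the WT range. Loxl2 rose from 116.9 ± 16 to 146.8 ± 9.37 FPKM (SD, n = 4 a group), a log2(FPKM + 1) change of 0.33 (SE 0.10, 95% interval 0.12 to 0.55, limma adjusted p 0.0489, exact permutation p = 0.0571). This call sat at the threshold and held in 2 of 8 fits without 1 library (WT library 3 or LRP1 KO library 4), with estimates of 0.28 to 0.40, and in 4 of 9 other settings. With the fibroblast and endothelial covariates the estimates were 0.30 (SE 0.14, adjusted p 0.445) and 0.23 (SE 0.13, adjusted p 0.566).

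Lox (ENSMUSG00000024529, chromosome 18, 52516067 to 52529867, minus strand, GRCm38) measured 363, 442, 738 and 589 FPKM in WT, and 658, 615, 874 and 765 FPKM in LRP1 KO. The WT libraries were spread widely, and LRP1 KO libraries 1 and 2 were below WT library 3. The means were 533 ± 165 and 728 ± 116 FPKM (SD, n = 4 each), a change of 0.49 on the log2(FPKM + 1) scale (SE 0.21, 95% interval 0.02 to 0.95) that did not pass (limma adjusted p 0.133, exact permutation p = 0.114). Leaving out WT library 1 gave 0.32 and leaving out WT library 3 gave 0.66, the extremes. Lox passed in 0 of the 8 fits without 1 library and in 1 of 9 other settings. With the fibroblast and endothelial covariates the estimates were 0.64 (SE 0.29, adjusted p 0.431) and 0.53 (SE 0.30, adjusted p 0.570).

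Loxl1 (ENSMUSG00000032334, chromosome 9, 58287738 to 58313186, minus strand, GRCm38) was the lysyl oxidase with the opposite sign. It measured 136.9, 167.8, 159.4 and 153.1 FPKM in WT, and 84.3, 120.4, 98.5 and 147.3 FPKM in LRP1 KO. LRP1 KO library 4 lay within the WT range and the other 3 were below it. The means were 154.3 ± 13.1 and 112.6 ± 27.5 FPKM (SD, n = 4 each), a change of -0.48 (SE 0.15, 95% interval -0.82 to -0.13, limma adjusted p 0.0659, exact permutation p = 0.0571). Without LRP1 KO library 4 the estimate was -0.62 and passed (adjusted p 0.00677), and over all its alternatives the adjusted p ran from there to 0.849. With the fibroblast covariate the estimate was -0.055 (adjusted p 0.848) and with the endothelial covariate -0.0755 (adjusted p 0.849).

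Loxl3 (chromosome 6, 83034173 to 83052562, plus strand) measured 13.5 to 19.1 FPKM in WT and 15.8 to 23.5 FPKM in LRP1 KO, a change of 0.27 that did not pass (95% interval -0.04 to 0.58, limma adjusted p 0.197). Its estimate was 0.17 without LRP1 KO library 3 and 0.37 without WT library 4. Of its exon bases, 11.6% are also exonic in Htra2 on the other strand, which had 43.9 FPKM in the WT libraries and 43.4 FPKM with LRP1 KO, and the part of shared reads was not tested. Loxl4 (chromosome 19, 42593982 to 42612813, minus strand) measured 3.48, 4.25, 6.65 and 5.83 FPKM in WT, and 8.72, 6.83, 8.86 and 4.65 FPKM in LRP1 KO. Its change of 0.45 did not pass (95% interval -0.03 to 0.93, limma adjusted p 0.173), and LRP1 KO library 4 alone was inside the WT range. Without that library Loxl4 passed at 0.62 (adjusted p 0.0375), and over all its alternatives the adjusted p ran from there to 0.984. The fibroblast and endothelial covariates took it to 0.18 and 0.021.

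Lox took 58.4% to 70.2% of the summed lysyl oxidase FPKM in WT and 67.4% to 75.7% in LRP1 KO. Loxl1 took 19.3% ± 3.76 in WT and 11.2% ± 2.71 in LRP1 KO (SD, n = 4 each), with the lowest WT library at 15.2% and the highest LRP1 KO library at 13.8%. The ratio of Lox to Loxl1 was 2.65, 2.64, 4.63 and 3.85 in the WT libraries and 7.81, 5.11, 8.87 and 5.19 in the LRP1 KO libraries, in order of their numbers. This ratio was chosen after the values were seen and carries no test. In LRP1 KO library 4, Loxl1 lay within the WT range, while Lox, at 765 FPKM, was above every WT library. The summed level of the 5 genes overlapped, at 622 to 1052 FPKM in WT and 913 to 1155 FPKM in LRP1 KO.

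**Figure D4:**
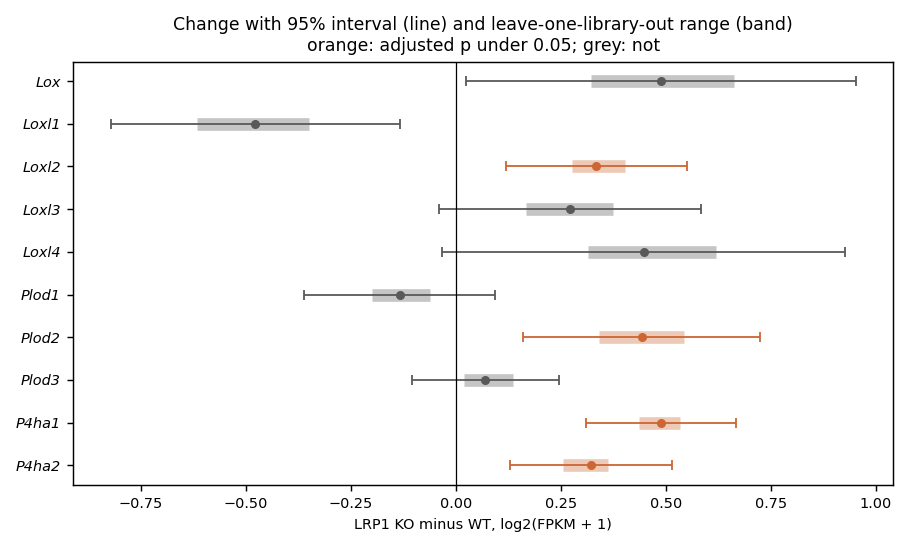
Change of each enzyme (LRP1 KO minus WT, log2(FPKM + 1)) with its 95% interval (line) and the range over 8 fits that each left out 1 library (band), orange where the adjusted p was under 0.05. P4ha1 at 0.49 has the narrowest interval of the 4 called genes, and the Loxl1 interval of -0.82 to -0.13 is on the opposite side of 0 from those of the called genes.

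The partners of the hydroxylases passed in both directions. Of 14 genes, 12 were tested, 7 were higher and 5 lower, with a median of 0.03, and 3 passed the limma test, where 48.1% of all tested genes were higher and 13.6% passed. P4hb, the beta subunit, was at 525 ± 21.9 FPKM in the WT libraries and 563 ± 21.4 FPKM with LRP1 KO (SD, n = 4 a group, limma adjusted p 0.223), and the collagen chaperone Serpinh1 at 538 ± 23.2 and 587 ± 41.7 FPKM (adjusted p 0.213). Fkbp14, a prolyl isomerase of the endoplasmic reticulum, rose from 11.9 to 16.6 FPKM (log2 change 0.45, limma adjusted p 0.0239). Crtap, which forms the prolyl 3-hydroxylase complex with P3h1, fell from 222 to 163 FPKM (log2 change -0.45, adjusted p 0.0231). Tmem38b, an ion channel of the endoplasmic reticulum, fell from 34.6 to 25.1 FPKM (log2 change -0.45, adjusted p 0.0329). These 3 calls held in 2, 3 and 3 of the 8 fits without 1 library. None passed with the fibroblast or endothelial covariate, at 0.34 and 0.30 for Fkbp14, -0.29 and -0.25 for Crtap, and -0.22 and -0.24 for Tmem38b.

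Of 8 genes that process procollagen, 6 were tested, and 2 passed, both higher, where 13.6% of all tested genes passed in either direction. Bmp1, the proteinase that cuts the carboxyl propeptide of collagen and activates Lox, rose from 60.3 ± 2.38 to 76.9 ± 6.32 FPKM (SD, n = 4 each, log2 change 0.34, limma adjusted p 0.0138), and held in all 8 fits without 1 library. Its relative Tll1 rose from 4.05 ± 1.87 to 12.3 ± 4.84 FPKM (log2 change 1.39, limma adjusted p 0.0279, n = 4 each), and held in 2 of 8. With the fibroblast and endothelial covariates neither passed, at 0.42 and 0.39 for Bmp1 (adjusted p 0.061 and 0.0874) and 0.81 and 0.76 for Tll1 (adjusted p 0.457 and 0.491). Of 8 genes that dock lysyl oxidases in the matrix or supply their copper, 7 were tested and 1 passed, a share close to those 13.6%. That was Postn, the matrix protein periostin, at 85.3 ± 10.6 FPKM in the WT libraries and 171 ± 38.3 FPKM with LRP1 KO (SD, n = 4 a group, log2 change 0.98, limma adjusted p 0.00663), which held in all 8 fits without 1 library. With the fibroblast covariate the change was 1.10 and passed (adjusted p 0.0471), and with the endothelial covariate it was 0.93 and did not pass (adjusted p 0.0996, where all alternatives spanned 0.00210 to 0.0996).

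The substrates showed no call. Of 16 collagen genes and elastin, 0 of 17 passed the limma test, against 13.6% of all tested genes, 5 had an unadjusted p under 0.05, as did 33.7% of all tested genes, and the median change was 0.05. Those 5, named after their values were seen, were Col5a2, Col6a1, Col6a2, Col12a1 and Col15a1, all with higher means in LRP1 KO. The most abundant were Col1a2 at 882 ± 108 and 736 ± 158 FPKM, Col4a1 at 824 ± 125 and 794 ± 57.9 FPKM, and Col4a2 at 566 ± 71.1 and 536 ± 41.1 FPKM in WT and LRP1 KO (SD, n = 4 a group, limma adjusted p 0.221, 0.812 and 0.630). A p that misses the threshold does not show equal levels, and the 95% interval for Col1a2 was -0.61 to 0.06. Without LRP1 KO library 4 Col1a2 passed as lower, at -0.41 (adjusted p 0.0313, where all alternatives spanned 0.0313 to 0.879). With library weights 1 substrate passed as higher and 1 as lower, and with a replicate block 1 passed as higher. The sign of the 3 most abundant turned with the fibroblast and endothelial covariates. They were at 0.10 and 0.078 for Col1a2, 0.10 and 0.067 for Col4a1, and 0.074 and 0.033 for Col4a2.

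P4ha1, P4ha2, Plod2, Lox and Loxl2 are known targets of hypoxia-inducible factors. In a list of 20 other such targets, all tested, 4 passed the limma test as higher and 2 as lower, with a median change of 0.09, where 6.27% of all tested genes passed as higher and 7.31% as lower. Those that passed as higher were 3 glycolytic enzymes and a regulator of glycolysis, at 0.57 for Pgk1 (adjusted p 0.0214), 0.34 for Eno1 (adjusted p 0.0289), 0.28 for Ldha (adjusted p 0.0294) and 0.68 for Pfkfb3 (limma adjusted p 0.0110), the last being the regulator. The glycolytic enzyme Hk2, named after its value was seen, was at 0.05 (limma adjusted p 0.813). Aldoa, the most abundant, was at 650 and 746 FPKM without passing (log2 change 0.20, limma adjusted p 0.0941). Leaving out LRP1 KO library 4 took it to 0.25, which passed (adjusted p 0.0137, where all alternatives spanned 0.0137 to 0.849), and was at 0.08 and 0.05 with the fibroblast and endothelial covariates. Car9, a carbonic anhydrase, fell by 1.17 on the log2(FPKM + 1) scale, from 4.90 ± 0.757 to 1.65 ± 0.579 FPKM (SD, n = 4 each, limma adjusted p 0.00302), and Ddit4, named outside the rule, fell by 0.47 (adjusted p 0.0263). Pfkfb3 and Car9 held in all 8 fits without 1 library, and Pgk1, Eno1, Ldha and Ddit4 in 4, 1, 2 and 2. With the fibroblast and endothelial covariates Car9 alone of these passed, at -0.83 and -0.82, and Pfkfb3 did not, at 0.48 and 0.41 (adjusted p 0.238 and 0.196). Pgk1 was at 0.45 and 0.39, Ldha at 0.21 in both, Eno1 at 0.21 and 0.18, and Ddit4 at -0.28 and -0.24.

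**Figure D5:**
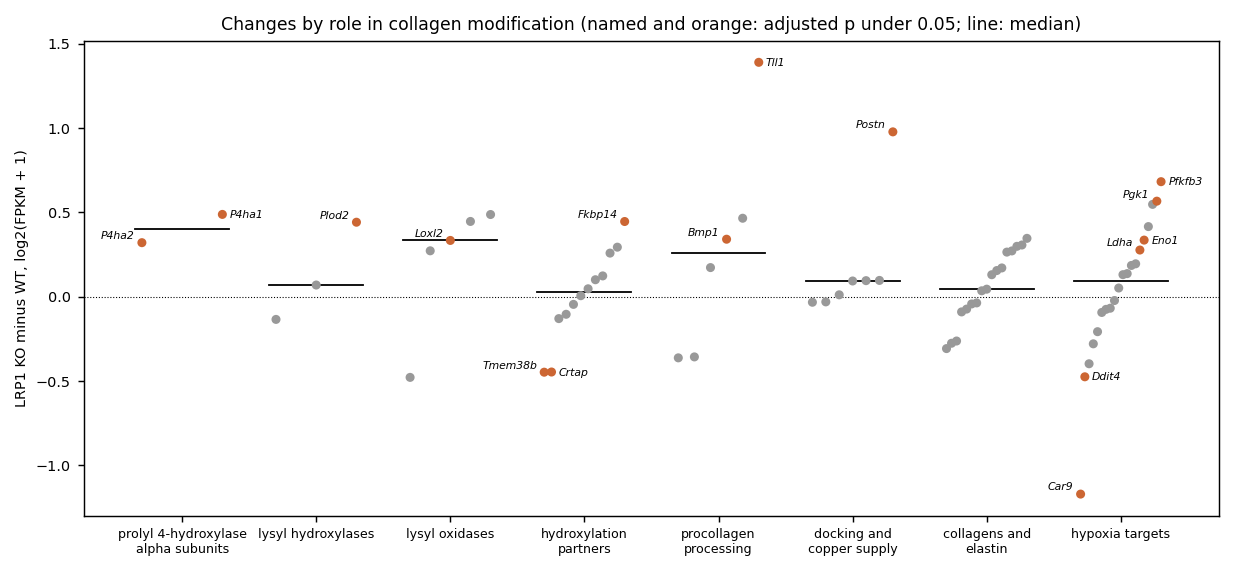
Change (LRP1 KO minus WT, log2(FPKM + 1)) of every tested gene, grouped by role, with the median of each group as a line and the genes with an adjusted p under 0.05 named in orange. The collagens and elastin hold no such gene, and the hypoxia targets hold genes on both sides of 0, from Car9 at -1.17 to Pfkfb3 at 0.68.

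The genes whose values ran most like P4ha1 over the 8 libraries were Pid1, Sdc3 and Twf1, each with Pearson's r of 0.98 on the log2(FPKM + 1) scale and Spearman's rho of 0.976. Without the 2 libraries farthest from the P4ha1 median, r was 0.962, 0.967 and 0.965. The 8 points share the difference between the groups and were chosen from 11389 genes as the highest. Pid1 averaged 5.56 FPKM in the WT libraries and 10.6 FPKM with LRP1 KO, Sdc3 at 12.7 and 21.6 FPKM, and Twf1 at 38.8 and 44.3 FPKM.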

How the data were processed

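Expression was measured by RNA sequencing in 4 LRP1 KO and 4 WT libraries, grouped by title. The FPKM values were deposited by the authors, per the labels from a workflow naming TopHat2, Cufflinks and mm10, while the study's methods describe STAR and featureCounts. The header names only genes and libraries, so the unit is inferred, and all columns share the same highest value (7793), as after quantile normalization across libraries. This removes depth, hides differences in total RNA and forces an equal distribution on each library.

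Values were analysed as log2(FPKM + 1), which understates changes of low genes, over 11389 of 22520 genes with at least 1 FPKM in at least 4 libraries. A count test such as the study's could not be used. limma 3.58.1 (R 4.3.3, variance trend, no covariate) compared the groups over all 8 libraries, with Benjamini-Hochberg adjustment over all tested genes, and a gene passed at an adjusted p under 0.05. Single members were compared with exact two-sided permutation tests (scipy 1.17.1, 70 ways to choose 4 of 8). The fit was tested on simulated data. There 62.5% of 200 genes given a log2 change of 0.5 passed (mean of 5 runs), so a change of that size can be missed.

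The members and lists were chosen with earlier results of these data known, so no list is given a p-value. Named genes are Lrp1, all 10 members, passing genes of the 3 lists of partners, processing, and docking and copper supply, the 3 most abundant and up to 3 most changed passing substrates and hypoxia targets, and the 3 genes most correlated with the most changed member. P4hb and Serpinh1 were named in addition, after their values were seen. Positions came from GENCODE M21 (GRCm38) and 7 list genes were matched by older symbols. Alternatives were another pseudocount (0.1), other filters, scaling, variance models, library weights, a replicate block, covariates for mean fibroblast or endothelial marker levels, and leaving out each library.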

Additional observations from a re-analysis of the deposited data

Results flagged for a closer look

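In 64 groups of 4 libraries, from the genes named one by one, 2 had a library far from the other 3 relative to the range of the group, where chance gives about 1 in 20. Loxl2 was at 132.9 FPKM in LRP1 KO library 4, against 150.3 to 152.8 FPKM in the other 3 LRP1 KO libraries, and without that library its change was 0.38 in place of 0.33. Plod1 was at 37.2 FPKM in WT library 1, against 44.9 to 45.2 FPKM in the other 3 WT libraries.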

How the results depend on the processing

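Depth is unknown, so precision rests on the spread between 4 libraries a group. Leaving out 1 library in turn gave 512 to 3021 passing genes of all tested (1547 with all libraries), 1 to 6 members (4), 0 to 4 hydroxylation partners (3), 1 to 3 processing genes (2), 1 docking or copper gene in every fit (1), 0 to 2 substrates (0) and 2 to 10 hypoxia targets (6). The high ends, except for the docking list, came without LRP1 KO library 4, where 3021 genes passed. P4ha1 was the member that passed in all 8 of these fits.

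With no filter, 1 member, 1 processing gene and 3 hypoxia targets passed, where 1163 of 18026 genes did. Without the variance trend 2 members passed, where 1428 of 11389 genes did. Library weights gave 3003 genes, 4 processing genes and 2 substrates. The fibroblast covariate left 166 genes, 0 members, 0 partners, 0 processing genes, 1 docking or copper gene and 1 hypoxia target, where the median SE of a gene was 0.120 in place of 0.0880. The endothelial covariate left 177 genes, 0 members, 0 partners, 0 processing genes, 0 docking or copper genes and 1 hypoxia target, with a median SE of 0.114. These small changes were reversed by the covariates: Plod1 at 0.12 (fibroblast) and 0.070 (endothelial), Col1a2 at 0.10 and 0.078, Col4a1 at 0.10 and 0.067, and Col4a2 at 0.074 and 0.033. Col4a1 was also reversed without WT library 3, at 0.00657, and without WT library 4, at 0.029, in a range of -0.135 to 0.029 with 1 library left out. None of these passed. The cause of each was not tested.

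Samples of the 2 groups share replicate numbers but correlated by number at 0.158, 0.141, 0.340 and -0.312 in their deviations from the group means, so the numbers were not taken as pairs, since 1 of the 4 was not above 0.1. Fitted with a replicate block, 1013 of 11389 genes passed, among them 4 members, all higher. So did 1 partner (lower), 2 processing genes (1 higher, 1 lower), 1 docking or copper gene (higher) and 1 substrate (higher). Of the 3 hypoxia targets that passed, 1 was higher and 2 lower. Lox then passed (adjusted p 0.0437) and Loxl2 did not (adjusted p 0.0823). Not every library correlated best with its own number.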

Other observations

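After the group mean was removed from each library, Loxl1 and Plod1, the members with lower means in LRP1 KO, had Pearson's r of 0.916 and Spearman's rho of 0.905 over the 8 libraries, the highest of 45 pairs. Without the 2 libraries farthest from the Loxl1 median r was 0.913. Loxl4 ran with Plod2 (r 0.893, rho 0.952, 0.746 without 2 libraries). Loxl2 ran with Loxl4 (r 0.889, rho 0.762, 0.874 without 2 libraries), with P4ha1 (r 0.863, rho 0.786, 0.781) and with Plod2 (r 0.794, rho 0.738, 0.808). The pair of Lox and Plod2 (r 0.774, rho 0.810) rested on 2 libraries, without which r was 0.268. Of the 45 pairs, 9 had a negative r. These are descriptions over libraries that share 1 normalization, chosen after the values were seen.

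Set against the collagen gene Col1a1, with 499 ± 72.5 FPKM in the WT libraries and 470.03 ± 82.2 FPKM with LRP1 KO (SD, n = 4 a group), P4ha1 did not overlap between the groups, with ratios of 0.156 to 0.209 in WT and 0.218 to 0.352 in LRP1 KO. The ratios of Lox and of Plod2 to Col1a1 overlapped. These ratios were also chosen after the values were seen and carry no test.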
